A study of Zea mays with 9 samples.

Results

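ZmbZIP60 is a maize transcription factor of the bZIP family, and the sites described here are its isolated ChIP-seq peaks with high pileup on chromosomes 1 to 10. They were chosen by their pileup and their spacing in the authors' ZmbZIP60 peak list: a pileup of 30 or more at the summit, and no other ZmbZIP60 peak within 10000 bp. The pileup is the number of pull-down tags, each extended to 200 bp, that cover the summit. The rule held for 458 of the 3042 listed peaks, which is 18.4% of the 2489 peaks on chromosomes and 30.6% of the 1497 isolated ones. Pileup, fold and significance of these peaks come from the contrast that chose them, so they are given as a description with no test.

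In plants, bZIP60 acts in the unfolded protein response. When misfolded proteins accumulate in the endoplasmic reticulum (ER), the sensor IRE1 splices the bZIP60 mRNA, and the spliced form yields a factor that enters the nucleus and switches on genes for chaperones and protein quality control. Factors of this family bind DNA as dimers, mostly at elements with an ACGT core. ZmbZIP17 belongs to the other arm of the response, in which a membrane-anchored factor is released by proteolysis.

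Leaf protoplasts of B73, a maize inbred line, gave the 9 libraries, with 3 in each of 3 groups. The groups carried a GFP fusion of ZmbZIP60 (GFP-ZmbZIP60C in the titles), a GFP fusion of ZmbZIP17 (GFP-ZmbZIP17C, called GFP-bZIP91 in another label) or the GFP vector alone. Per the labels, all groups shared the same line, growth and tunicamycin treatment, given as 5 mg per ml in DMSO (the unit could not be checked here); tunicamycin blocks N-glycosylation and causes ER stress. A GFP antibody served for the pull-down, so the data report on transformed cells that express a fusion beside the protoplasts' own factor, and the promoter of the constructs is not given in the sources used here. The series states 3 biological replicates per group, but the authors merged the libraries of a group before calling peaks, and the merged ZmbZIP60 file is named for replicates 1 and 3, so each value below is 1 pooled value with no replicate error. Filtering left 18726110 tags in the merged ZmbZIP60 pull-down, 126318506 in that of ZmbZIP17 and 47193255 in the merged vector control. Genes and DNA sequence at the sites were not analysed here.

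The 458 sites ranged widely in the vector control, and they are described here in 2 kinds, cut at 20 control tags. The cut falls in a continuous range, with 13 sites at 10 to 20 tags and 44 at 20 to 40. At 65 sites (14.2%, 95% exact Clopper-Pearson interval 11.1 to 17.7) the control background was under 20 tags over 200 bp, and at the other 393 (85.8%) it was higher. The background here is the control level that the call used at the summit, in unscaled tags, and its mean over the genome was 3.50. The low-control sites had a median of 7 control tags and the high-control sites a median of 76, which is 2.0 and 21.7 times the genome mean. In the pull-down the medians were 34 and 81 tags, or 24.5 and 58.4 times the genome mean of 1.39. Most sites picked for a high pileup were therefore also places of high control signal. From 40 control tags up, the call itself needs a pileup of at least 33, so the pileup threshold could leave out no isolated peak there; 349 of the 393 high-control sites were of this kind. Among isolated peaks with low control, 65 of 1095 reached the threshold. The low-control share rests on the pileup threshold: it was 25.3% at a pileup of 25 or more and 3.39% at 40 or more, and 23.8% with the cut at 40 control tags.

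**Figure D1:**
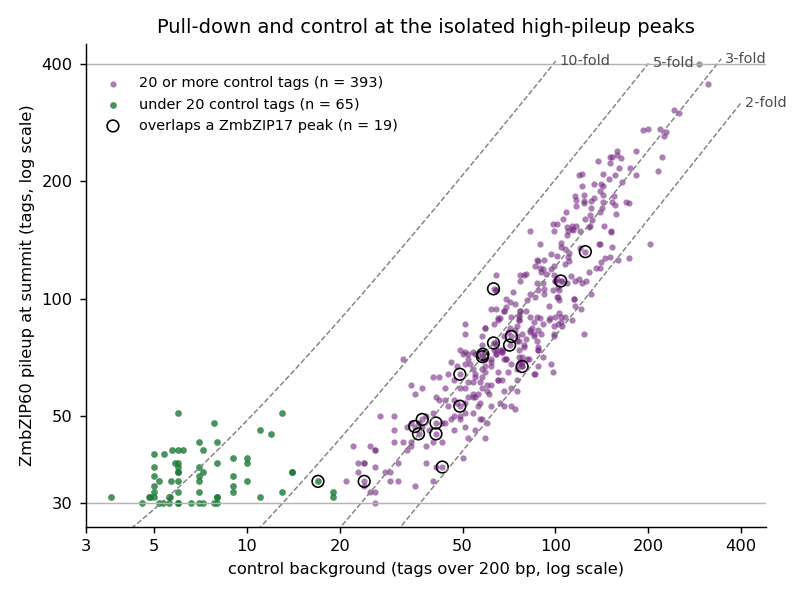
Pull-down pileup at the summit (tags, log scale) against control background (tags over 200 bp, log scale) for each of the 458 sites, with dashed lines of equal fold, grey lines at pileups of 30 and 400, and circles around the 19 sites that overlap a ZmbZIP17 peak. The 65 low-control sites lie at pileups of 30 to 51, while the 393 high-control sites lie in a band around 3-fold that runs up to 400 tags.

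The low-control sites held the highest enrichment of the list. The fold is the authors' ratio of pull-down to scaled control at the summit, with 1 added to each. The median fold of the 65 sites was 9.76 (interquartile range 7.98 to 11.1, lowest 3.75, highest 15.4). At the 393 high-control sites the median was 2.86 (interquartile range 2.45 to 3.32), and the highest fold, 5.18, was exceeded by 62 of the 65 low-control sites. Of the 34 peaks in the whole list with a fold above 10, 29 were low-control sites of this kind, 3 were isolated peaks of lower pileup and 2 lay in clusters. The pileup enters the fold, so the pileup threshold itself favours the sites in this count. Isolated peaks of lower pileup had a median of 16 tags and at most 29. The pileups of the low-control sites ended at 51 tags. The counts of isolated low-control peaks thinned out steadily across the threshold, with 175 at 20 to 24 tags, 70 at 25 to 29, 35 at 30 to 34, 17 at 35 to 39, 8 at 40 to 44 and 5 at 45 to 51. No gap in pileup set the low-control sites apart from the peaks just under the threshold. With 30 tags over 20 control tags the fold is 3.47, so the rule and the cut together set the low-control sites above that value.

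The 10 sites of highest fold were all low-control sites, spread over chromosomes 1, 4, 5, 6, 7 and 9. The first lay at chromosome 5, 71289500 to 71290025, with 51 pull-down tags (95% Poisson interval 38.0 to 67.1, counting error only) over 6 control tags and a fold of 15.4. At chromosome 6, 161701542 to 161702035, 40 tags (28.6 to 54.5) stood over 5 control tags, a fold of 13.7. These intervals overlap widely, so the order among the leading sites is not resolved by their counts. At chromosome 7, 5053311 to 5053619, 31 tags gave a fold of 13.1. At chromosome 9, 137027810 to 137028339, and chromosome 1, 280773291 to 280773654, 40 and 41 tags gave folds of 13.05 and 12.8. These 3 had their background set by a wider window than the 200 bp at the summit, with 181 control tags over 10 kb, 27 over 1 kb and 287 over 10 kb. The remaining 5 sites had folds of 11.97 to 12.7 and pileups of 35 to 48. They were chromosome 4, 87427753 to 87428160, chromosome 1, 293281739 to 293282035, chromosome 5, 172855431 to 172855948, chromosome 5, 20374106 to 20374420, and chromosome 7, 146610602 to 146611245. Of these, the sites that start at 172855431 and 146610602 also had a wider window, with 31 and 39 control tags over 1 kb.

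The high-control sites had a nearly even fold over a wide range of control signal. From the lowest to the highest class of control background, the median fold was 3.23 at 20 to 40 tags (44 sites), 2.83 at 40 to 60 (82 sites), 2.73 at 60 to 80 (86 sites), 2.55 at 80 to 100 (58 sites), 2.93 at 100 to 150 (87 sites) and 2.94 from 150 up (36 sites). The interquartile ranges of these classes overlapped, and 360 of the 393 sites (91.6%) had a fold of 2 up to 4. Over the same classes the median of the lowest fold that the call could list went from 2.18 to 1.5. Pileup and control ranked alike (Spearman rho 0.91 over 393 sites of the same merged libraries, a description that the pileup threshold also shapes). For the 65 low-control sites the rho was 0.22. The pileup had a ceiling of 400 tags because 1 tag was kept per position and strand, and this bounds the fold below 10 at 129 of the 393 high-control sites and below 5 at 11 of them. At the low-control sites the bound was at least 46.96-fold. The control has the same ceiling of 400 tags before it is scaled down to the depth of the pull-down. At the high-control sites the medians were 81 pull-down tags and 76 unscaled control tags. What part the ceiling and the scaling have in the nearly even fold was not tested.

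**Figure D2:**
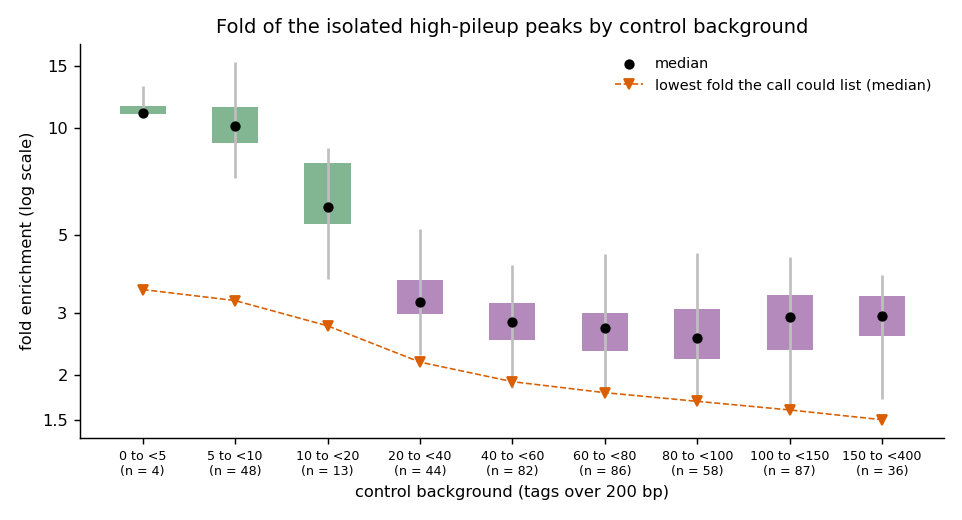
Fold enrichment (log scale) of the 458 sites by class of control background (tags over 200 bp): black points are medians, boxes are interquartile ranges, grey lines run from the lowest to the highest site, and triangles give the median of the lowest fold that the call could list. Medians are 11.01, 10.1 and 5.96 in the 3 low-control classes (green) and lie between 2.55 and 3.23 in the high-control classes (purple).

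At the high-control sites the control signal was itself concentrated at the summit. The call takes the largest of the control levels over 200 bp, 1 kb, 10 kb and the genome, and a level that is a whole number of tags over 200 bp points to the narrowest window, although a wider window can give a whole number too. The level was whole, within 0.002 tags, at 392 of the 393 high-control sites (99.7%). It was whole at 44 of the 65 low-control sites (67.7%, 95% interval 54.9 to 78.8) and at 567 of the 1039 isolated peaks of lower pileup (54.6%). The exception among the high-control sites was the long site at chromosome 1, 286105492 to 286108104, where 291 control tags over 1 kb set the level. Of the 1039 isolated peaks of lower pileup, 1030 had low control, and the level was whole at all 9 others. Most other high-control peaks also had a whole level, at 295 of 301 in clusters (98.0%, 95% interval 95.7 to 99.3) and 455 of 512 in blocks (88.9%, 85.8 to 91.5). The share in blocks was below that of the high-control sites (interval 98.6 to 99.99). A whole level thus went with high control and was not particular to these sites.

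The 5 sites of highest pileup were high-control sites of ordinary fold. At chromosome 2, 220735787 to 220736714, the pileup reached the ceiling of 400 tags with 292 control tags and a fold of 3.43. Only the pull-down was full there, since 292 tags fill 73% of the 400 positions in the control. At chromosome 1, 199417769 to 199418744, 355 pull-down tags stood over 312 control tags, the highest control level of any site (fold 2.85). The others were chromosome 10, 141537074 to 141538083, with 305 tags (fold 3.14), chromosome 5, 170045231 to 170047248, with 300 tags (fold 2.99), and chromosome 4, 22865913 to 22866673, with 273 tags (fold 3.41). At more than 200 tags, lay 27 sites in the pull-down and 10 in the control.

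Just inside the pileup limit, at 30 tags, 12 sites were listed, led by chromosome 1, 193249676 to 193250028 (fold 11.03) and chromosome 3, 155197327 to 155197827 (fold 10.1). Just outside, 7 isolated peaks had 29 tags, led by chromosome 4, 86240006 to 86240427 (fold 10.05) and chromosome 7, 170257621 to 170258173 (fold 9.95). For the spacing, the closest neighbour of an included site was 10814 bp away, at chromosome 1, 263002782 to 263003028, followed by 10997 bp at chromosome 3, 228993839 to 228994182. Of the peaks with enough pileup that missed the spacing, the nearest to the limit were chromosome 7, 18716011 to 18716410, at 9754 bp, and chromosome 1, 197077441 to 197077794, at 9666 bp. The last had 41 pull-down tags, 5.48 control tags and a fold of 13.2.

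The sites had a median length of 335 bp (interquartile range 266 to 448), with 364 bp at low-control and 329 bp at high-control sites. The median was 267 bp for isolated peaks of lower pileup, 331 bp in clusters, 498 bp in blocks and 316 bp over all chromosomal peaks. The summit lay between 25% and 75% of the interval's length at 90.4% of the sites (414 of 458, 95% interval 87.3 to 92.9). The same share was 82.9% (80.4 to 85.1) for isolated peaks of lower pileup, 81.3% (77.5 to 84.7) in clusters of 2 to 4 peaks and 75.2% (71.3 to 78.9) in blocks of 5 or more. The longest site, at chromosome 2, 79842357 to 79851189, covered 8833 bp with 132 tags at its summit and a fold of 2.63.

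Along the chromosomes the high-control sites were spread rather evenly, while the low-control sites had their highest share in the last 10% of the chromosome, as the isolated peaks of lower pileup did. Position was not used by the rule other than the distance to the next peak. The stretch between 25% and 75% of each chromosome, measured up to its last listed peak, held 46.1% of the high-control sites (181 of 393, 95% interval 41.0 to 51.1). It held 35.4% of the low-control sites (23 of 65, 23.9 to 48.2) and 29.7% of the isolated peaks of lower pileup (309 of 1039, 27 to 32.6). The intervals of the high-control sites and of the lower-pileup peaks do not overlap, whereas the interval of the low-control sites meets both. Of the 1039 lower-pileup peaks, 1030 had low control. Cluster peaks also differed by control, with 51.5% at high control (155 of 301, 45.7 to 57.3) and 33.9% at low control (59 of 174, 26.9 to 41.5). For high-control block peaks the share was 60.5% (310 of 512, 56.2 to 64.8). Peaks of 1 cluster or block share a position: all 475 cluster peaks lay in 198 clusters and all 517 block peaks in 54 blocks. The intervals count each of these peaks as separate, so they can be too narrow. Counted by peak, a larger central share at high control was not particular to these sites, and the share by cluster or block was not computed. In steps of 10% of the chromosome, the share of high-control sites ran from 7.38% to 13.2%. For the peaks of lower pileup it ran from 3.95% in the fifth step to 22.4% in the last, and for the low-control sites from 3.08% to 21.5% in the same steps. Those steps held 2 and 14 of the 65 low-control sites, so their profile rests on few sites. Each chromosome held between 29 sites (chromosome 10) and 61 (chromosome 1), or 17.6 to 27.6 sites per 100 Mb, lowest on chromosome 2 and highest on chromosome 9. Low-control sites were found on all 10 chromosomes, from 2 on chromosome 2 to 11 on chromosome 1.

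**Figure D3:**
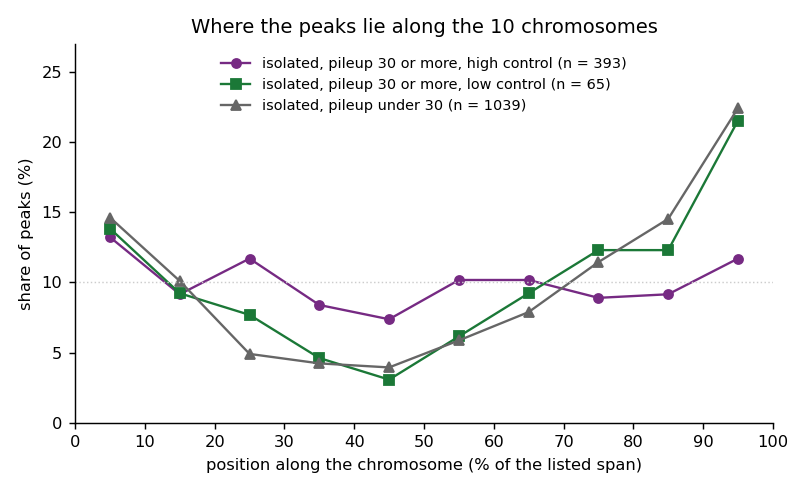
Share of peaks (%) in each step of 10% along the chromosome, from its start to its last listed peak, summed over the 10 chromosomes; the dotted line marks an even spread. The 393 high-control sites stay between 7.38% and 13.2%, while the 65 low-control sites and the 1039 isolated peaks of lower pileup both drop below 5% near the middle and exceed 20% in the last step.

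The ZmbZIP17 pull-down gives a readout that the rule did not use, although its call shared the vector control. Of the 458 sites, 19 overlapped a ZmbZIP17 peak by at least 1 bp (4.15%, 95% interval 2.52 to 6.4), beside 7.51% of all 2489 chromosomal ZmbZIP60 peaks. Of the 187 overlapping peaks in that background, 130 lay in blocks. Isolated peaks of lower pileup overlapped at 0.289% (3 of 1039, 0.0596 to 0.841), below the share of the sites. Since 1030 of these 1039 had low control, this comparison is not at like control. Counted by locus, 65 of 1749 chromosomal loci held an overlap (3.72%), the 19 sites among them. This value lies within the interval of the sites. The share of the sites was thus below the background by peak and near it by locus. By kind, 18 of the 393 high-control sites (4.58%, 2.74 to 7.14) and 1 of the 65 low-control sites (1.54%, 0.0389 to 8.28) overlapped one. Of the 1030 low-control isolated peaks of lower pileup, 3 did (0.291%, 0.0601 to 0.849), so at low control the intervals overlapped. The 19 sites met 22 of the 282 ZmbZIP17 peaks (7.80% of that list). With 50% of the interval covered the count was 11 sites (2.40%), and with summits within 100 bp it was 10 (2.18%). The ZmbZIP17 pileup, after scaling, could not exceed 149 tags, and at 116 of the 458 sites the call needed more than that at the summit. Of the 342 sites below this ceiling, 17 overlapped (4.97%, 2.92 to 7.84).

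At like control background, the share of isolated sites that met a ZmbZIP17 peak was below the share of peaks in blocks up to 100 tags. At 20 to 40 control tags the share was 9.09% of the 44 sites (95% interval 2.53 to 21.7), beside 20% of 30 cluster peaks (7.71 to 38.6) and 59.6% of 47 block peaks (44.3 to 73.6). At 40 to 60 tags it was 8.54% of 82 sites (3.50 to 16.8), beside 41.3% of 46 cluster peaks (27 to 56.8) and 59.3% of 81 block peaks (47.8 to 70.05). The intervals of isolated and block peaks did not overlap in either class. No test of the difference was made, and block peaks share loci: the 47 lay in 14 blocks, of which 9 held an overlap, and the 81 lay in 24, of which 16 did. The intervals count each block peak as separate, so they can be too narrow. Median lengths of sites and block peaks were 264.5 and 248 bp at 20 to 40 tags, 277.5 and 379 bp at 40 to 60, 339 and 530 bp at 60 to 80, and 351.5 and 937 bp at 80 to 100, so block peaks were longer in all but the first of these classes. At 60 to 80 tags 5.81% of the 86 sites overlapped (1.91 to 13). Beside them stood 13.5% of 52 cluster peaks (5.59 to 25.8) and 45.1% of 82 block peaks. At 80 to 100 tags 0 of the 58 sites did (upper end of the exact interval 6.16%). The shares there were 2.78% of 36 cluster peaks (0.0703 to 14.5) and 18.0% of 61 block peaks (9.36 to 29.98). The 82 block peaks lay in 29 blocks, 16 with an overlap, and the 61 in 26, 8 with one. Up to 100 tags, the intervals of sites and cluster peaks were apart only at 40 to 60 tags. From 100 to 150 tags the intervals of the 3 kinds overlapped, with 2 of 87 sites.

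**Figure D4:**
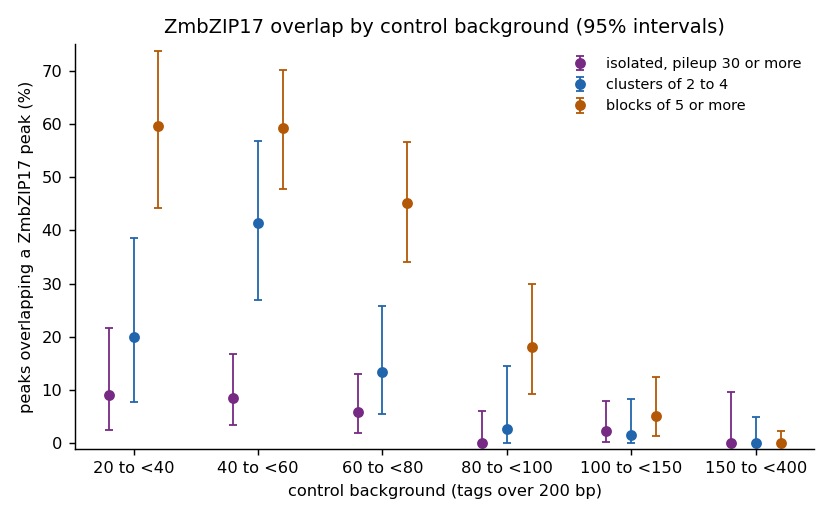
Share of ZmbZIP60 peaks (%) that overlap a ZmbZIP17 peak by at least 1 bp, by control background (tags over 200 bp), for the high-control isolated sites, clusters of 2 to 4 peaks and blocks of 5 or more; bars are exact 95% intervals of the share of peaks. Isolated sites stay at 9.09% or lower, while block peaks reach 59.6% at 20 to 40 tags.

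The 19 shared sites had a greater median length than the rest and a like median fold; no test was made. Their median length was 715 bp, against 331 bp at the other 439 sites, and a longer interval has more bases with which to meet another peak. Of the high-control sites of at least 600 bp, 13 of 45 overlapped (28.9%, 95% interval 16.4 to 44.3), against 5 of 348 shorter ones (1.44%, 0.468 to 3.32). The median fold was 3.0 at shared and 2.99 at other sites. The shared sites had 34 to 132 pull-down tags, while at 65 of the 67 sites with 150 tags or more a ZmbZIP17 call at the summit would need more than its ceiling of 149 tags.

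**Figure D5:**
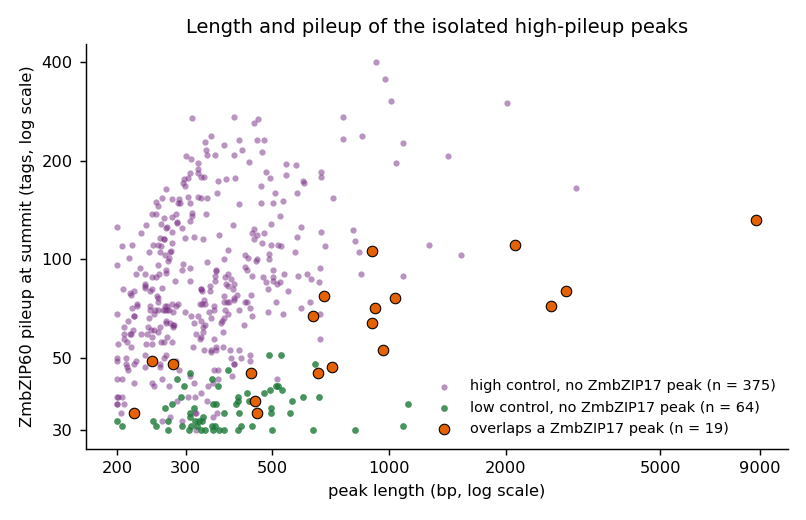
Pull-down pileup at the summit (tags, log scale) against peak length (bp, log scale) for the 458 sites, with the 19 that overlap a ZmbZIP17 peak as orange points. The orange points have a median length of 715 bp and lie below 150 tags, and the other sites cluster around 331 bp.

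Ranked by the −log10 q of the ZmbZIP17 call, the shared sites were led by chromosome 4, 239410061 to 239410306, where the ZmbZIP17 peak had a −log10 q of 11.3 and a fold of 2.71 and the ZmbZIP60 peak a fold of 3.19. The next was the low-control site, at chromosome 6, 78664746 to 78664966, with 17 control tags, a ZmbZIP60 fold of 4.52, a ZmbZIP17 fold of 3.24 and summits 12 bp apart. In the first of these the summits lay 33 bp apart. Short distances were also found at chromosome 3, 16357300 to 16357740 (13 bp), chromosome 3, 86765516 to 86765973 (15 bp), and chromosome 7, 48063915 to 48064629 (43 bp). The ZmbZIP60 folds of these 3 sites were 3.01, 3.33 and 3.22, and the ZmbZIP17 folds 2.45, 2.81 and 2.43. Since the lists were scaled separately, a pair of folds does not compare the factors. Other shared sites had summits far apart although the intervals met. At chromosome 5, 188092543 to 188093448, which had the highest ZmbZIP60 fold of the high-control shared sites (4.12, with 106 tags over 63 control tags), the ZmbZIP17 summit was 523 bp away. At chromosome 4, 105656356 to 105656808, with the lowest fold of the 19 (2.1), the distance was 281 bp. The other 3 of the first 10 were chromosome 6, 114241599 to 114242504 (165 bp), chromosome 5, 119994313 to 119994967 (329 bp), and chromosome 3, 67929371 to 67929648 (65 bp). Over all 19 sites, taking the most significant ZmbZIP17 peak of each, the distance had a median of 65 bp and ran up to 4760 bp, at the longest site. The site farthest from any other ZmbZIP60 peak was also shared: chromosome 7, 68939042 to 68941151, whose next peak lay 6883852 bp away.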

How the data were processed

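ChIP-seq was measured in 9 libraries, merged by group. The tools named in the submitters' processing notes are BWA, bedtools, MACS2 and Trimmomatic 0.36. Per the file headers, the authors called peaks with MACS2 (2.1.0.20150420) against the merged vector control, with tags extended to 200 bp, a q-value cutoff of 0.05, a genome size of 2.7 Gb and 1 tag kept per position and strand, which removed 26% of ZmbZIP60, 41% of ZmbZIP17 and 9% of control tags. The larger dataset was scaled to the smaller. The deposited pileup is a signal in tags, and the deposited fold is the ratio of the pull-down to the local control level. The authors' p and q values are given as −log10, and the deposited score was compared between files only. The 3 files of each list agree for all 3042 and 282 peaks. Coordinates are 1-based, and the contig names are those of B73 assembly version 4.

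The control background was recovered from the deposited fold, (pileup + 1)/(control + 1), and divided by the depth scaling. Sites were split at 20 control tags over 200 bp. Peaks nearer than 10000 bp were joined into clusters (2 to 4) and blocks (5 or more). Overlap means at least 1 bp. Shares have exact Clopper-Pearson 95% intervals and pileups exact Poisson ones, for counting error only; pooled lists allow no replicate error, and peaks are not replicates. The rule and the overlap count were tested on simulated peaks. Sites named are the 10 of highest fold, the 5 of highest pileup, the first 10 that overlap ZmbZIP17, the 2 nearest to each threshold on either side, the longest and the most isolated; further shared sites fall outside this rule. The members, the split and the groupings were chosen with earlier results of these data known. Calculations ran in Python 3.11.15 with scipy 1.17.1, pandas 2.3.3 and numpy 2.4.6, and plots in matplotlib 3.10.9.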

Additional observations from a re-analysis of the deposited data

How the results depend on the processing

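The number of sites stayed within 1.5 times of 458 under all 5 other rules, from 384 (pileup of 40 or more) to 534 (25 or more). The median fold, 2.99, was 3.15 at a pileup of 25 or more, 2.88 at 40 or more and 3.08 with a −log10 q of at least 5. The share at low control, 14.2%, was 25.3% at a pileup of 25 or more, 3.39% at 40 or more and 23.8% with the split at 40 tags. A lower pileup limit admits more low-control peaks by construction. The share that overlaps a ZmbZIP17 peak, 4.15%, was 2.40% with 50% of the interval covered and 2.18% with summits within 100 bp, both stricter by construction. The share between 25% and 75% of the chromosome, 44.5%, was 54.8% in the middle 60%, a wider window. The other alternatives moved these values by less than their intervals. The low-control share under other rules, and both it and the central share under the stricter q, were alternatives chosen after seeing the data. No paired analysis was possible because the lists were called on merged libraries with no value per replicate, and leaving out a replicate was not run for the same reason. Alternatives on motif windows and gene starts were not run, since no genome of the files' build was used here. Pileups of 30 to 51 tags leave the order of the low-control sites unresolved, and the limit of 1 tag per position and strand caps the fold where the control is high. The same limit bounds the control before scaling, and its part in the nearly even fold of the high-control sites was not tested.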

Other observations

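Isolation varied widely among the 458 sites. The gap to the next ZmbZIP60 peak had a median of 477 kb (interquartile range 185 kb to 1.02 Mb), and it exceeded 1 Mb at 116 sites. Another site of the same kind lay within 100 kb of 34 sites, none of them at low control. Of the 16 sites of 1000 bp or more, 2 were at low control and 5 overlapped a ZmbZIP17 peak. The longest low-control site was at chromosome 6, 169490106 to 169491224, with a length of 1119 bp and a fold of 9.59. The high-control site of highest fold was at chromosome 9, 159465263 to 159465527, with 70 pull-down tags, 32 control tags and a fold of 5.18. The lowest fold, 1.63, was at chromosome 2, 217533431 to 217533637. These 3 sites were chosen after their values were seen.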
